A study of Caenorhabditis elegans with 12 samples.

Results

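Adult somatic gonad cells of *C. elegans* were compared on day 7 (D7) of adulthood between animals with reduced insulin/IGF-1 signaling and animals that in addition lacked the FOXO transcription factor DAF-16. The comparison takes 6 of the 12 RNA-seq libraries of the series, 3 from *daf-2(rf)* animals and 3 from *daf-16(0); daf-2(rf)* animals, here called the double mutant. Both groups carried the reduction-of-function allele *e1370* of the insulin receptor gene *daf-2*, and the double mutant carried the *daf-16* null allele *mu86*. Both also carried a *Pfos-1a::gfp* reporter inserted at a single site, were untreated and were of the same age. GFP+ cells of the proximal somatic gonad (PSG), which are spermathecal and uterine cells, were sorted from dissociated animals, so every library pools the cells of many animals and holds whatever else passed the sort. The question was which genes depend on DAF-16 in aging PSG cells. A gene entered the test when every replicate of either genotype, or of both, held more than 10 of its reads, and 7933 of 46687 annotated genes did.

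DAF-2 is the only insulin/IGF-1 receptor of the worm. When it is active, a kinase cascade through AGE-1 and the AKT kinases phosphorylates DAF-16 and keeps it out of the nucleus. When it is impaired, DAF-16 enters the nucleus, where it is known to induce stress defense, chaperone and metabolic genes, while yolk protein and many secreted gut genes are known to go down. Somatic gonad DAF-16 is studied for its part in slowing the age-related loss of germline stem and progenitor cells.

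Between 12158458 and 16407304 reads per library fell on genes. The 10 most abundant genes took 64.8% of them in *daf-2(rf)* replicate 1, 27.4% in replicate 2 and 31.5% in replicate 3, against 52.2%, 62.4% and 61.4% in the double mutant. Levels are given in CPM, which are read counts scaled to a common library size with the TMM method. The scaling factors ran from 0.639 to 2.16, both in *daf-2(rf)* libraries (replicates 1 and 2), and 1 read stood for 0.0375 to 0.129 CPM. *fos-1*, whose promoter drives the reporter, had at least 251 CPM in all 6 libraries. *nmy-1*, a nonmuscle myosin of the contractile spermatheca, had between 3063 and 10706 CPM. It was the most abundant gene of a list of 27 PSG genes, of which 24 reached the read minimum. Summed levels of the PSG list ran from 5654 to 13858 CPM in *daf-2(rf)* and from 9686 to 17067 CPM in the double mutant, and they overlapped. Of 47 sperm genes none reached the read minimum, and their summed level was 2.97 to 17.8 CPM. In such pooled samples, fewer cells of a type and less RNA per cell cannot be told apart.

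Reads on *daf-16* itself were lower in each double mutant library than in any *daf-2(rf)* library. Its level was 64.2, 41.3 and 20.8 CPM in *daf-2(rf)*, falling to 9.47, 10.4 and 15.5 CPM in the double mutant. The log2 fold change was 1.83 (standard error 0.44) and the adjusted p was 0.0819 (edgeR quasi-likelihood F test, adjusted after Benjamini and Hochberg over all genes tested), which left *daf-16* uncalled. Counts are summed over the whole gene (I, 10750343 to 10776039 in WBcel235), and which exons hold the remaining reads was not analysed here.

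Of the 7933 genes, 91 (1.15%) were called differentially expressed, which required a log2 fold change of 1 or more in size at an edgeR adjusted p under 0.05. A positive log2 fold change means a higher level in *daf-2(rf)*. 26 genes (0.328%) were higher and 65 (0.819%) lower in *daf-2(rf)*. None of the 91 overlapped between genotypes, as was true of 2034 (25.6%) of all genes tested, and 18.8% of all genes had an unadjusted p under 0.05. The changes were large where they were called: the median log2 fold change was 3.83 for the higher and -3.79 for the lower genes, with genes near 0 reads set to a bound at 3 reads, and 86 of the 91 exceeded 2 in size. Their adjusted p lay between 0.00914 and 0.0490, and only 5 were under 0.03, so the count moves easily: it was 29 without *daf-2(rf)* replicate 1, 3 without replicate 2, 12 without replicate 3, and 22, 5 and 0 without double mutant replicates 1, 2 and 3.

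**Figure D1:**
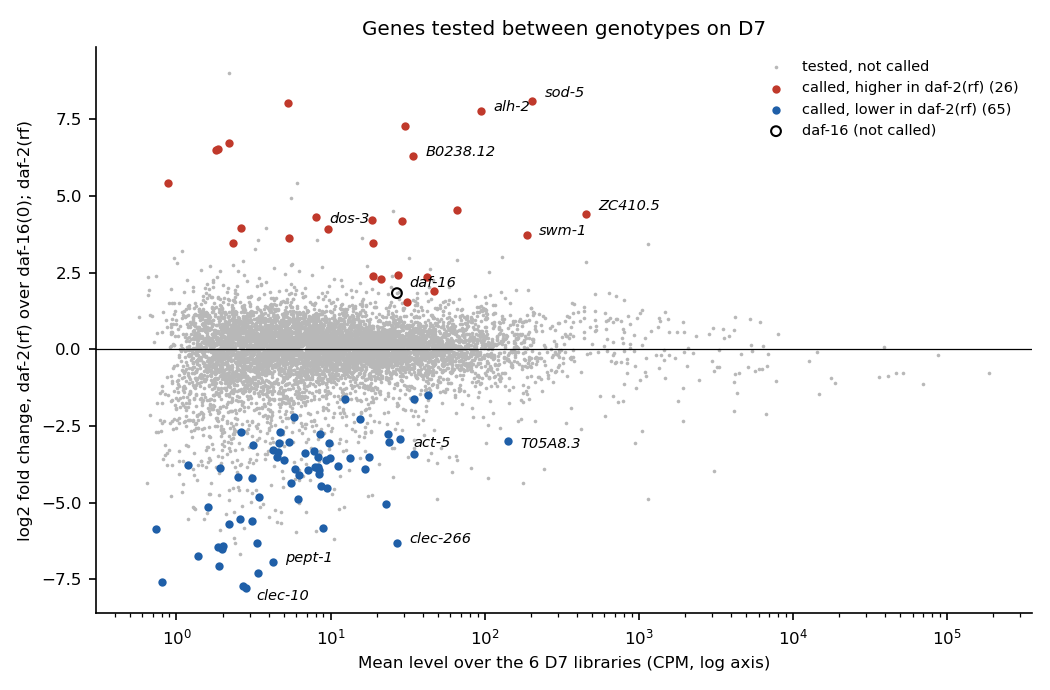
Each point is a gene tested on D7, with its mean level over the 6 libraries in CPM on a log axis (horizontal) and its fitted log2 fold change of *daf-2(rf)* over the double mutant (vertical). The 26 genes called higher (red) reach further to the right than the 65 called lower (blue), and *daf-16*, circled, lies at 1.83 and was not called.

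The higher genes were the more abundant. Of the 1983 genes tested with a mean of 24.9 CPM or more, 12 were called higher and 6 lower, while of the 1984 with a mean up to 3.60 CPM, 6 were called higher and 22 lower. Summed over the 26 higher genes, the level was 3425, 2209 and 2073 CPM in *daf-2(rf)* and 160, 153 and 165 CPM in the double mutant. The 65 lower genes summed to 145, 154 and 150 CPM in *daf-2(rf)* and to 1626, 1005 and 1193 CPM in the double mutant. The groups were chosen for these differences, so the sums describe them and test nothing. Of the lower genes, 39 had a mean under 1 CPM in *daf-2(rf)* PSG cells.

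*sod-5* and *alh-2*, 2 known whole-worm targets of DAF-16, stood at the head of the higher genes. *sod-5* (II, 4417683 to 4419131), a cytosolic copper/zinc superoxide dismutase, had 466, 278 and 470 CPM in *daf-2(rf)* and 0.391, 2.43 and 1.68 CPM in the double mutant. Its lowest *daf-2(rf)* library was thus more than 100 times above its highest double mutant library. *alh-2* (V, 1644169 to 1647728), an aldehyde dehydrogenase, had 320, 121 and 126 CPM against 0.313, 1.40 and 0.895 CPM. Replicate 1 stood above the others in *daf-2(rf)*, and the groups did not overlap. The log2 fold changes were 8.09 (standard error 0.72) for *sod-5* and 7.77 (standard error 0.72) for *alh-2*, each with an adjusted p of 0.00914 in edgeR's test.

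Both genes, together with *B0238.12*, were still called when any 1 library was left out, except for double mutant replicate 3, without which no gene was called. *B0238.12* (V, 5267822 to 5268823) encodes a protein with the trypsin inhibitor-like (TIL) domain of secreted protease inhibitors. Its levels were 48.5, 93.4 and 61.3 CPM in *daf-2(rf)* and 0.313, 1.40 and 0.895 CPM in the double mutant, a log2 fold change of 6.29 (standard error 0.57, edgeR adjusted p = 0.00914). *swm-1* (V, 9054268 to 9054877), the other TIL-domain gene called, encodes an inhibitor that keeps sperm activation proteases in check in males. It had 4098, 7260 and 5502 reads against 486, 252 and 151 reads, or means of 348 ± 157 and 26.2 ± 10.8 CPM (SD, n = 3), and was thus still read often without DAF-16. Of 6 TIL-domain genes tested these were the 2 called, and the median of the 6 was 0.12.

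The most abundant gene of the higher group was *ZC410.5* (IV, 9088611 to 9092191), to which the deposited annotation gives no family. It had 1181, 772 and 640 CPM in *daf-2(rf)* and 48.9, 22.4 and 51.1 CPM in the double mutant. *C54F6.6*, likewise without a family, had 235, 83.9 and 62.4 CPM against 1.25, 9.73 and 5.48 CPM. In both genes the lowest *daf-2(rf)* library stood at least 6 times above the highest double mutant library. The log2 fold changes were 4.40 (standard error 0.50, edgeR adjusted p = 0.0250) and 4.54 (standard error 0.82, edgeR adjusted p = 0.0477).

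Among the stress genes, *F08H9.4*, a small heat shock protein of the HSP-16 type, had 962, 783 and 625 reads in *daf-2(rf)* and 0, 9 and 3 reads in the double mutant. It was the only called gene of 39 chaperone genes tested, and its log2 fold change was 7.28 (standard error 1.05, edgeR adjusted p = 0.0423). Its neighbouring paralog *F08H9.3* had 34 reads or fewer in every library and was not tested. *hsp-12.6*, a small heat shock protein and textbook DAF-16 target, had 2.32, 4.13 and 25.9 CPM against 0.156, 0.374 and 0.559 CPM. Replicate 3 carried most of its *daf-2(rf)* level, and it was not called (log2 fold change 4.92, edgeR adjusted p = 0.0671). The abundant heat-inducible *hsp-16.2* had 165, 226 and 964 CPM against 319, 311 and 195 CPM, and its groups overlapped.

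*mtl-1*, a metallothionein, had 19, 35 and 32 reads in *daf-2(rf)* and 0, 1 and 0 in the double mutant, a ratio of pooled levels of 48.8 with a 95% interval from 8.54 to 1951 that covers counting error only. *ctl-3*, a catalase, had 253, 452 and 110 reads against 17, 9 and 12 reads. Its neighbours *ctl-1* and *ctl-2* are near-identical copies, so reads can be split among the 3 genes in an uncertain way, and neither of them was called (log2 fold changes 3.26 and 0.92). *sod-3*, a mitochondrial superoxide dismutase widely used as a DAF-16 reporter, had 36.2, 21.9 and 3.53 CPM in *daf-2(rf)* and 0.469, 1.12 and 1.45 CPM in the double mutant. Its groups did not overlap, but replicate 3 lay close to the double mutant, and it was not called (log2 fold change 4.35, edgeR adjusted p = 0.0558). In the list of antioxidant enzymes, 2 of 20 genes were called higher and none lower, with a median of 0.70 against 0.03 over all genes tested. The share called higher among all genes tested was 0.328%. Both called members, *sod-5* and *ctl-3*, passed the read minimum only in *daf-2(rf)*, where they are high, so the filter favours that direction.

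*dos-3* (III, 835815 to 839591), which encodes a putative secreted Notch ligand of the non-canonical kind, with a DOS motif, was the only gene called in a list of Notch ligands, receptors and effectors, of which 18 were tested. It had 16.0, 23.4 and 6.85 CPM in *daf-2(rf)* and 0.469, 0.655 and 1.23 CPM in the double mutant. Each *daf-2(rf)* library was at least 5 times above the highest double mutant library. The log2 fold change was 4.31 (standard error 0.60, edgeR adjusted p = 0.0398). Across the fits that left out 1 library, its adjusted p was under 0.05 only without *daf-2(rf)* replicate 3 and otherwise between 0.0536 and 0.126. The ligand genes *dsl-2* and *dsl-3* had log2 fold changes of -3.78 and -2.41 and were not called, and at most 30 reads were counted on either in any library. The receptor genes *lin-12* (-0.50) and *glp-1* (-0.78) and the GLP-1 target genes *sygl-1* (-0.07) and *lst-1* (0.15), which act in germ cells, were not called either. The median of the 18 genes was -0.39.

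**Figure D2:**
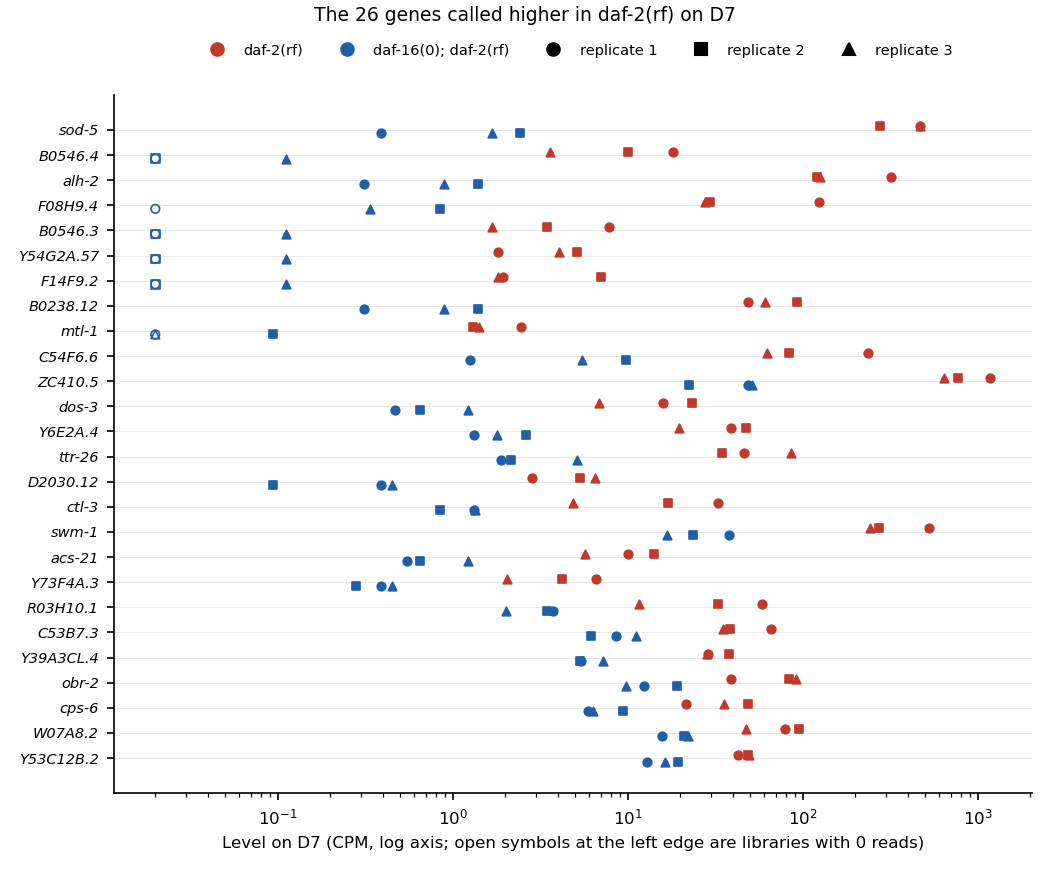
Levels in CPM on a log axis of the 26 genes called higher, one row per gene, with *daf-2(rf)* libraries in red and double mutant libraries in blue and a symbol for each replicate. *sod-5* runs from 278 to 470 CPM in *daf-2(rf)* and from 0.391 to 2.43 CPM in the double mutant, and open symbols at the left edge stand for 0 reads.

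Metabolic and secreted proteins made up part of the remaining higher genes. *acs-21*, a long-chain acyl-CoA synthetase, had 78, 379 and 129 reads against 7, 7 and 11 reads. *ttr-26*, a transthyretin-like secreted protein, had 46.3, 34.6 and 85.8 CPM against 1.88, 2.15 and 5.14 CPM. The genotypes kept clear of each other in both genes, and the log2 fold change of *acs-21* was 3.64. *ttr-26* was the only called gene of 22 transthyretin-like genes tested, whose median was -0.48.

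Among the smallest called increases, *Y53C12B.2*, annotated as an RNA-binding protein of the PNO1 type that acts in ribosome biogenesis, had 42.8, 48.7 and 49.2 CPM against 12.9, 19.3 and 16.3 CPM. *cps-6*, the mitochondrial endonuclease G that degrades DNA during apoptosis and removes paternal mitochondria, had 21.5, 48.8 and 35.6 CPM against 5.95, 9.45 and 6.38 CPM. *obr-2*, of the oxysterol-binding protein family, had 39.1, 83.7 and 91.2 CPM against 12.4, 19.1 and 9.84 CPM. The lowest *daf-2(rf)* library stood at least 2 times above the highest double mutant library in all 3 genes. The same held for *W07A8.2*, annotated as a phospholipase A2 family member, with 79.3, 95.8 and 47.5 CPM against 15.8, 20.9 and 22.3 CPM. *cps-6* overlaps *eif-3.H*, and *D2030.12* overlaps *prg-1*, each on the opposite strand. So do 3 of the lower genes with other tested genes, among them *pho-8*, which overlaps *nphp-4*. Libraries of the kit used keep no strand, so reads of such partners cannot be told apart.

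Several genes were almost without reads in the double mutant. *B0546.3* and *B0546.4*, neighbours on chromosome IV that encode Yippee-like proteins, had 61, 92 and 38 and 140, 268 and 82 reads in *daf-2(rf)* and 0, 0 and 1 reads each in the double mutant. The ratios of pooled levels were 108 (95% counting interval 19.2 to 4307) and 278 (49.7 to 11014). *mai-2*, the ATPase inhibitor gene next to them, had 47, 158 and 26 reads against 0 in all 3 double mutant libraries, at least 15.4-fold higher against a floor of 3 reads per library, with an edgeR adjusted p of 0.0527. The 3 genes lie between 3378791 and 3386907, and none had a read in any double mutant library on D1, against 23 to 151 reads per *daf-2(rf)* library. On one side, *otub-4* was lower but not without reads in the D7 double mutant, with 45, 55 and 29 reads against 156, 806 and 172 in *daf-2(rf)*. Its genotypes did not overlap, and it was not called (log2 fold change 2.28, edgeR adjusted p = 0.0739). On D1 it had 92, 63 and 127 reads in *daf-2(rf)* and 8, 24 and 8 in the double mutant. On the other side, *pdhb-1* overlapped, with 167, 68 and 49 reads in the double mutant and a log2 fold change of 0.10. These flanking genes were chosen after their values were seen. Whether the strains differ at this place beyond *daf-16* was not tested. *F14F9.2* and *Y54G2A.57*, both without a family, also had 0, 0 and 1 reads in the double mutant and 15 to 187 and 14 to 137 reads in *daf-2(rf)*.

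A list of 34 tested genes known to be induced by DAF-16 in whole worms held 4 called genes, all higher: *sod-5*, *alh-2*, *F08H9.4* and *mtl-1*. Of its other members, 23 had a positive and 7 a negative log2 fold change, and the median was 0.90. 15 of the 34 did not overlap between genotypes, against 25.6% of all genes tested, of which 0.328% were called higher. The 4 called genes, and also *sod-3* and *hsp-12.6*, passed the read minimum only in *daf-2(rf)*, where they are high. *cdr-2* passed it only in the double mutant. For such genes the filter favours the direction seen. When 1 library was left out, 0 to 3 of the list were called. The next by p were *lea-1*, a desiccation-tolerance protein (1.84, edgeR adjusted p = 0.0549), and *sod-3*, followed by *hsp-12.6* and *cpi-1*, a cystatin-type protease inhibitor (2.85, edgeR adjusted p = 0.0899). At the other end, *cdr-2*, a cadmium-responsive gene, stood at -3.49 and *hsp-16.1* at -2.58, and neither was called (edgeR adjusted p = 0.151 and 0.208).

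The opposite list, of genes known to be repressed by DAF-16 in whole worms, ran the other way in every member tested. All 15 had a negative log2 fold change, and the median was -3.36. 12 of them did not overlap between genotypes, against 25.6% of all genes tested, of which 0.819% were called lower. 2 were called: *dod-20*, with 1, 0 and 1 reads in *daf-2(rf)* and 50, 27 and 48 in the double mutant, and *clec-186*, a C-type lectin gene, with 7, 15 and 22 against 156, 50 and 71 reads. Neither group overlapped in these genes. *dod-20* and *clec-186*, like *dod-17*, *dod-22*, *dod-23*, *dod-24* and *clec-4*, passed the read minimum only in the double mutant, where they are high. The filter thus favours a negative value for them. Yolk protein genes, which the intestine makes and secretes, had the largest levels of the list. *vit-2* had 240, 224 and 245 reads in *daf-2(rf)* and 9153, 504 and 2225 reads in the double mutant, a log2 fold change of -4.35 (standard error 0.99, edgeR adjusted p = 0.0750). Replicate 1 of the double mutant held most of it, and *vit-2*, *vit-5* and *vit-6* were not called.

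C-type lectins, secreted carbohydrate-binding proteins linked to the intestine and to immune defense, were the largest family among the lower genes. Of 33 tested, 9 were called, all lower, 30 had a negative log2 fold change, and the median was -3.09. *clec-266* had 1.55, 0.563 and 0.221 CPM in *daf-2(rf)* and 26.3, 107 and 26.2 CPM in the double mutant (log2 fold change -6.31, standard error 0.89, edgeR adjusted p = 0.0409). Its highest library was replicate 2, unlike most lower genes. *clec-10* had 0, 0 and 1 reads in *daf-2(rf)* and 135, 31 and 30 in the double mutant, a ratio of 345 with a counting interval from 61.2 to 13699. *clec-63* had 2.32, 3.90 and 2.34 CPM against 62.8, 20.3 and 15.3 CPM. The groups lay apart in all 3 genes, with the double mutant well above. Among 16 tested genes that the deposited annotation assigns a C-type lectin domain, all had a negative log2 fold change, and 4 were called lower. Of the 9 called lectins, only *clec-63* and *clec-150* passed the read minimum in both genotypes. The others, *clec-10* and *clec-266* among them, entered the test only through the double mutant, where they are high. The filter thus favours a negative value for them. Among all genes tested, 0.819% were called lower.

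Peptidases formed the other large group of lower genes. They were brought together by domain or name after their values were seen: of 44 aspartic, papain-like cysteine, S28, S10 and neprilysin peptidase genes tested, 10 were called lower and none higher, 39 were negative, and the median was -2.51. Among all genes tested 0.819% were called lower. *asp-6*, an aspartic protease, had 4.38, 7.76 and 3.62 CPM in *daf-2(rf)* and 71.1, 30.5 and 26.3 CPM in the double mutant. *cpr-4*, a cathepsin B-type protease, had 2.45, 2.89 and 0.972 CPM against 26.4, 11.1 and 14.5 CPM. The double mutant libraries were at least 3 times above the *daf-2(rf)* libraries in both, with replicate 1 the highest (log2 fold changes -3.01 and -3.05, edgeR adjusted p = 0.0446 and 0.0468). The others were the cathepsin-type genes *cpz-2* and *R07E3.1*, the S28 peptidases *F56F10.1* and *C26B9.5*, the carboxypeptidase *K10C2.1* and the neprilysins *nep-17*, *nep-22* and *nep-26*, with log2 fold changes from -3.32 to -5.82. *asp-6*, *cpr-4*, *nep-17* and *nep-26* passed the read minimum in both genotypes. The other called peptidase genes passed it only in the double mutant, where they are high, so the filter favours a negative value for them. Neprilysins are membrane metallopeptidases that cut small peptides. In the list of lysosomal and digestive proteases, 2 of 14 genes (*asp-6* and *cpr-4*) were called lower, and all 14 were negative.

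Further lower genes, most of them known from the intestine, were put together after their values were seen. *pept-1*, the intestinal di- and tripeptide transporter, had 2, 0 and 1 reads in *daf-2(rf)* and 197, 38 and 54 in the double mutant, a ratio of 170 with a counting interval from 57.5 to 827. *act-5*, the actin of intestinal microvilli, had 7.87, 7.01 and 5.08 CPM against 93.5, 24.4 and 32.7 CPM. *vha-6*, the intestinal subunit a of the V-ATPase, had 1.68, 0.638 and 0.927 CPM against 30.4, 8.61 and 8.28 CPM. In each, all double mutant libraries were above all *daf-2(rf)* libraries, and replicate 1 was the highest by more than 2 times. *ifd-1*, an intermediate filament gene of the intestine, had 0, 0 and 1 reads against 145, 35 and 14. *lec-9*, a galectin, had 10, 34 and 32 reads in *daf-2(rf)*, or 1.33 CPM on average, against a mean of 44.2 CPM with the highest library at 102 CPM.

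**Figure D3:**
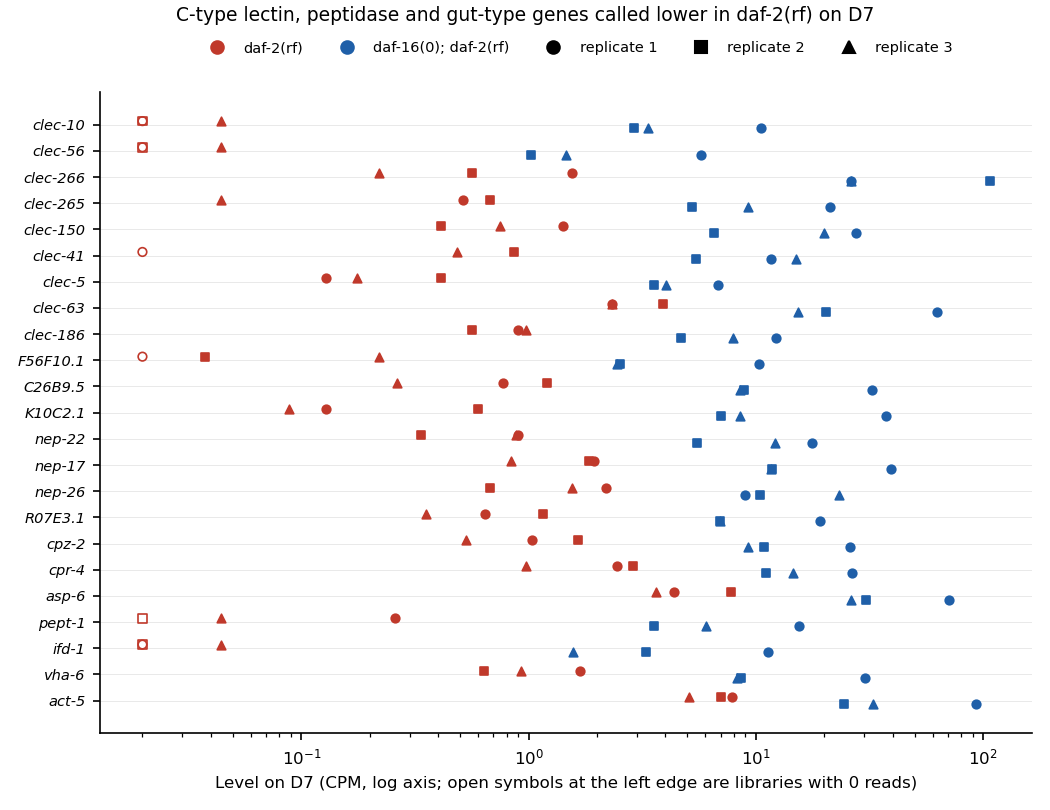
Levels in CPM on a log axis of 23 genes called lower, in the order C-type lectins, peptidases and gut-type genes, with *daf-2(rf)* libraries in red and double mutant libraries in blue and a symbol for each replicate. Double mutant replicate 1 (blue circles) is the highest library in most rows, *act-5* for example at 93.5 CPM against 24.4 and 32.7 CPM, and open symbols at the left edge stand for 0 reads.

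Of 30 intestinal genes listed, 28 were found in the table and 17 tested, of which 4 were called lower (*pept-1*, *vha-6*, *act-5* and *cpr-4*, the last also a member of the protease list), 14 did not overlap, all 17 were negative, and the median was -3.05. The called members are thus among the genes already given. Of these, *pept-1* entered the test only through the double mutant, and the others through both genotypes. Of all genes tested, 25.6% did not overlap. The summed level of the 28 genes was 284, 254 and 317 CPM in *daf-2(rf)* and 2307, 485 and 917 CPM in the double mutant. The intestine's defining transcription factor gene *elt-2* had 1, 16 and 2 reads in *daf-2(rf)* and 9, 3 and 8 in the double mutant, and the gut esterase gene *ges-1* 0, 9 and 2 against 5, 3 and 3. Neither reached the read minimum, and none of the 28 genes was at 0 in all 6 libraries. *gem-4*, *erm-1* and *spl-1*, members also used in other tissues, had log2 fold changes of -0.19, -0.11 and -0.20. The part of intestinal RNA in the lower genes was not tested.

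Over all 65 lower genes, double mutant replicate 1 was the highest of its group for 42, replicate 3 for 18 and replicate 2 for 5, and for 27 replicate 1 was more than 2 times above both others. Without double mutant replicate 1, the medians were -2.58 for the intestinal list, -2.60 for the C-type lectins and -1.83 for the protease list, and the number of lower genes was 15. The call of 9 of the 65 was kept in at least 1 of the 6 fits that left out a library. *T05A8.3* (II, 2714640 to 2717435), without a family and the most abundant of the lower genes, kept it in 3. It had 21.9, 28.3 and 44.2 CPM in *daf-2(rf)* and 206, 282 and 270 CPM in the double mutant. Here the double mutant libraries were close to each other, with means of 31.5 ± 11.5 CPM in *daf-2(rf)* and 253 ± 40.6 CPM in the double mutant (SD, n = 3, edgeR adjusted p = 0.0347).

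Of the called decreases, *B0513.5*, a mitochondrial proline dehydrogenase, was the smallest, with a log2 fold change of -1.47. It had 23.2, 19.5 and 25.4 CPM in *daf-2(rf)* and 54.9, 75.4 and 58.6 CPM in the double mutant. *K02F6.3*, annotated by likeness to an ankyrin repeat protein, had 121, 474 and 408 reads against 605, 510 and 551 reads, or 17.1 ± 1.33 and 52.2 ± 8.14 CPM (SD, n = 3). *fbl-1*, the basement membrane protein fibulin-1 that acts in gonad shape, had 2.06, 1.80 and 2.78 CPM against 10.4, 17.6 and 16.9 CPM. In CPM, every double mutant library was at least 2 times above every *daf-2(rf)* library in these genes. Other lower genes were *pho-8*, an acid phosphatase, *pmp-1*, a peroxisomal ABC transporter, *gst-38*, a glutathione S-transferase, *T08H10.1*, an aldo-keto reductase, *sulp-7*, a sulfate transporter family member, *F14E5.1*, of the sugar transporter family, and *zig-2*, a secreted immunoglobulin-domain protein. *zig-2* had no read in *daf-2(rf)* and 11, 15 and 23 reads in the double mutant, at least 7.65-fold lower against the floor of 3 reads per library.

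**Figure D4:**
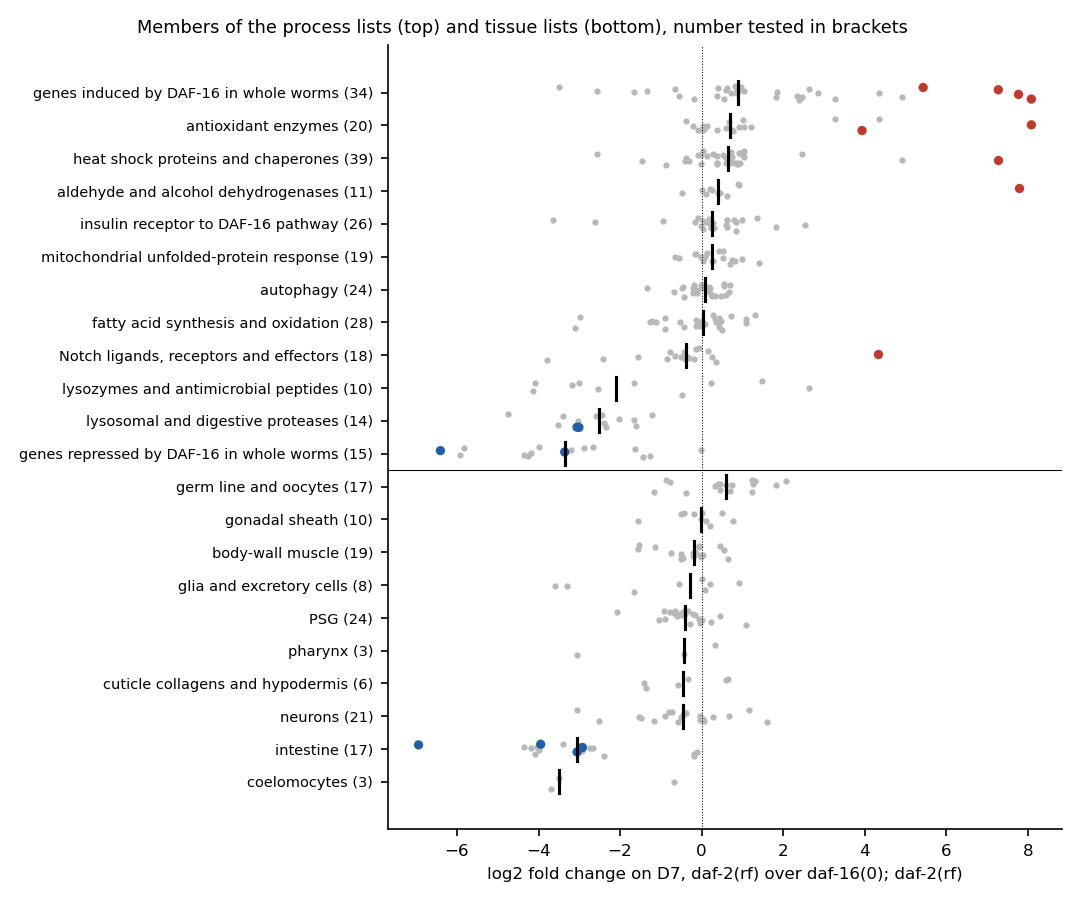
Log2 fold change of *daf-2(rf)* over the double mutant for each tested member (points) of 12 process lists (upper part) and 10 tissue lists (lower part), with the median as a black bar, called genes in red (higher) or blue (lower) and the number tested in brackets. Medians of -3.36 for genes repressed by DAF-16 and -3.05 for the intestine stand at the left, and 0.90 for genes induced by DAF-16 at the right. A member of several lists is drawn in each.

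A list of the insulin signaling pathway, with *daf-16* and transcription factors that act beside it, held no called gene among 26 tested, with a median of 0.26. *prmt-1*, an arginine methyltransferase that protects FOXO from AKT, had 73.9, 304 and 164 CPM against 24.1, 51.1 and 18.7 CPM and was not called (log2 fold change 2.53, edgeR adjusted p = 0.0803). *akt-2*, a kinase that phosphorylates DAF-16, had 42.8 ± 16.3 CPM against 16.6 ± 0.933 CPM (SD, n = 3, log2 fold change 1.36, edgeR adjusted p = 0.0954). Both lay without overlap. *sgk-1*, a kinase of the same pathway, went the other way, with 2, 0 and 9 reads in *daf-2(rf)* against 43, 28 and 18 (-3.64, edgeR adjusted p = 0.106), also without overlap or call. It passed the read minimum only in the double mutant, so the filter favours this direction. *daf-2* itself stood at 38.9, 42.8 and 41.7 CPM against 30.2, 35.5 and 34.1 CPM, a log2 fold change of 0.31.

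Neither autophagy genes (24 tested, median 0.08), fatty acid synthesis and oxidation genes (28 tested, 0.04) nor genes of the mitochondrial unfolded-protein response (19 tested, 0.26) held a called gene. Their members with the lowest p were *atg-4.1*, an autophagy protease (-1.34), and *atg-7* (0.67), *acdh-7*, an acyl-CoA dehydrogenase (1.32), and *elo-5*, a fatty acid elongase (-3.09), and *F15D3.7* (1.40) and *E04A4.5* (0.99), with edgeR adjusted p from 0.0739 to 0.291. *alh-2* was the only called gene of 11 aldehyde and alcohol dehydrogenase genes, whose median was 0.39. Of 10 lysozyme and antimicrobial peptide genes none was called by edgeR and 5 by DESeq2, with a median of -2.11. *ilys-5* (-4.14) and *lys-4* (-4.09), lysozyme genes, came closest, with edgeR adjusted p of 0.0742 and 0.0820.

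Of 73 cytosolic ribosomal protein genes tested none was called by edgeR, and DESeq2 called 33. All 73 had a positive log2 fold change, with a median of 1.02. Of them 71 did not overlap between genotypes, against 25.6% of all genes tested. The median was between 0.93 and 1.08 when any 1 library was left out. Here the values shift relative to the TMM scale, on which the median of all genes was 0.03.

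Among the other tissue lists no gene was called. The PSG list had a median of -0.42 over 24 genes, of which *itr-1*, the IP3 receptor that drives spermathecal contraction (-2.08, edgeR adjusted p = 0.0822), and *tag-341* (-1.06, edgeR adjusted p = 0.120) had the lowest p. The median of the list was between -0.65 and 0.04 when 1 library was left out. Germ line and oocyte genes had a median of 0.59 over 17 genes and sums of 1796, 676 and 429 CPM against 871, 464 and 979 CPM, which overlapped. Their most abundant member was *perm-4*, an eggshell layer gene, with 138 to 834 CPM in *daf-2(rf)* and 94.9 to 450 CPM in the double mutant. Gonadal sheath genes had a median of -0.01 over 10 genes, led by *unc-60*, and *tnt-3* (-1.55) was lowest by p.

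Body-wall muscle genes had a median of -0.20 over 19 genes, led by *lev-11*, the tropomyosin gene. Summed levels of this list were 6447, 2445 and 8461 CPM in *daf-2(rf)* and 7352, 5805 and 5056 CPM in the double mutant, and they overlapped. In *daf-2(rf)* replicate 1 the sum was above that of the PSG list, which was 5825 CPM. Neuronal genes had a median of -0.46 over 21 genes, led by *snb-1*, synaptobrevin. The 3 coelomocyte genes tested had a median of -3.50. Their sums were 44.1, 8.48 and 18.1 CPM in *daf-2(rf)* and 18.9, 150 and 394 CPM in the double mutant, where *cup-4*, a receptor-like gene of these scavenger cells, alone had 5.95, 62.7 and 205 CPM. Double mutant replicates 2 and 3 were thus high and replicate 1 was not, other than for the intestinal genes. The pharynx and hypodermis lists had 3 and 6 genes tested, with sums under 80 CPM in every library, and the glia and excretory cell list, led by *vha-8*, had 8 tested with a median of -0.28.

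The called genes lay on all nuclear chromosomes. Chromosome V held 26 of them (of 1326 genes tested), IV 19 (of 1286), X 18 (of 1159), II 17 (of 1271), III 8 (of 1416) and I 3 (of 1462). On X, 17 of the 18 were lower, while V held 12 of the 26 higher genes. None of the 13 mitochondrial genes tested was called. Of the 91, 90 are annotated as protein-coding.

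The D1 libraries, from the same genotypes on day 1 of adulthood, are separate samples in which the genes chosen on D7 could be looked at again. A separate fit of the 6 D1 libraries called 226 of 6430 genes (3.51%), 81 higher (1.26%) and 145 lower (2.26%) in *daf-2(rf)*. Of the 26 genes higher on D7, 16 were tested on D1, 13 of them had the same sign and 7 were called in the same direction: *B0546.4*, *B0546.3*, *B0238.12*, *Y6E2A.4*, *swm-1*, *ttr-26* and *R03H10.1*. Of the 65 lower genes, 23 were tested, 18 had the same sign and 5 were called in the same direction: *act-5*, *asp-6*, *cpr-4*, *clec-63* and *clec-150*. No gene was called in opposite directions. *swm-1* had a log2 fold change of 4.15 on D1 (standard error 0.60, edgeR adjusted p = 0.0202) and 3.73 on D7 (standard error 0.48, edgeR adjusted p = 0.0390), and *cpr-4* had -5.94 on D1 (standard error 0.60, edgeR adjusted p = 0.00813).

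**Figure D5:**
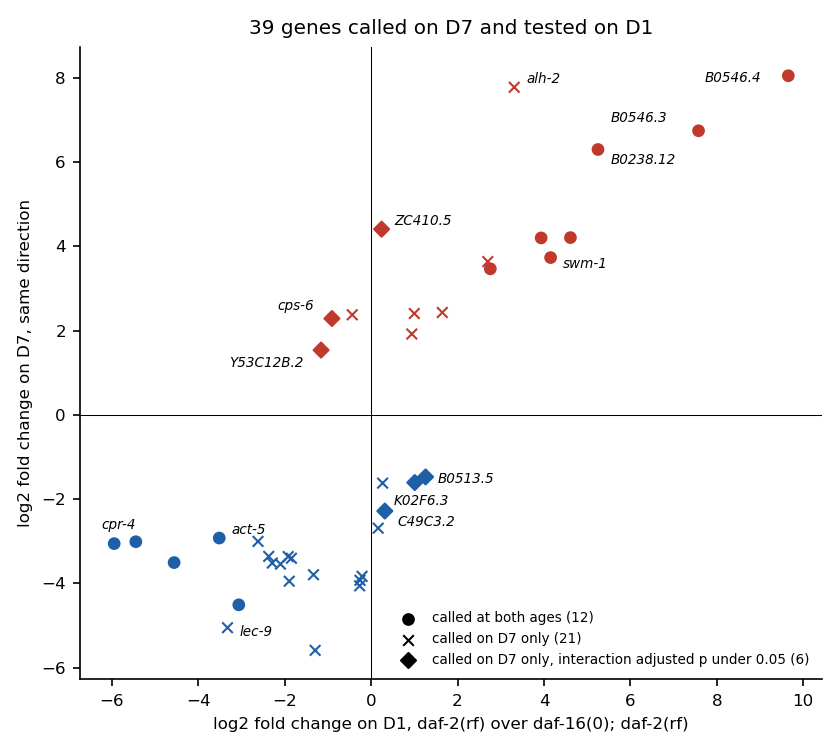
Log2 fold change of *daf-2(rf)* over the double mutant on D1 (horizontal) and D7 (vertical) for the 39 genes called on D7 and tested on D1, red for higher and blue for lower on D7. The 12 circles, called at both ages, lie in the quadrants of like sign, and the 6 diamonds, with an interaction adjusted p under 0.05, lie near or beyond 0 on D1. Crosses mark the other 21 genes, called on D7 only.

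Many of the remaining genes had few reads on D1. *sod-5* had 38, 13 and 1 reads in *daf-2(rf)* and 3, 8 and 6 in the double mutant on D1, against 3613, 7420 and 10646 on D7 in *daf-2(rf)*. *dos-3* had 7, 16 and 5 reads against none in the double mutant, and *F08H9.4* 9, 3 and 10 against 0, 1 and 0. These 3 genes were below the read minimum on D1. The change of the genotype effect with age was tested as an interaction over all 12 libraries. It had an edgeR adjusted p under 0.05 in 57 of 8096 genes (0.704%), among them 7 of the 91. The 91 were chosen on D7 libraries that also enter this test, so the choice favours them here. *ZC410.5* was abundant at both ages, with 1535, 2116 and 2028 reads in *daf-2(rf)* and 248, 620 and 1728 in the double mutant on D1. Its log2 fold change was 0.24 on D1 and 4.40 on D7, a difference of 4.12 (edgeR adjusted p = 0.0462). For *dos-3* the interaction had an adjusted p of 0.486.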

How the data were processed

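RNA of sorted PSG cells was amplified with a SMARTer Ultra Low kit, which keeps no strand, and sequenced as paired-end libraries. Per the labels' processing notes and the methods, the authors aligned reads to WBcel235 with HISAT2 2.0.5 and counted them per gene with featureCounts 1.5.0-p3. The deposited counts are raw reads per gene. The deposited FPKM values are the authors' length- and depth-scaled values and served only an alternative. The annotation release is not given in the sources used here. The table holds 46687 genes, 98 of them unnamed loci with at most 0.351% of the reads of a library.

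Genotypes on D7 were compared with edgeR 4.0.16 in R 4.3.3 (TMM, quasi-likelihood F test, Benjamini-Hochberg adjustment over 7933 genes). The minimum was over 10 reads in each replicate of a group, and a call needed a log2 fold change of 1 or more in size at an adjusted p under 0.05. Standard errors are approximate and were taken from the size of the log2 fold change and the square root of F. Replicates are biological replicates per the methods. A count of 0 allows up to 3 reads, and intervals and floors cover counting error only. Lists were described by counts and medians. Named are genes the study names, called genes among the 12 largest changes each way or the 12 lowest p, called list members, the 2 members with the lowest p of lists without a call, the most abundant tissue markers, and called genes named with their family. Other uncalled list members and flanking genes given with values were chosen after these were seen. The members and lists were chosen with earlier results of these data known. Alternatives were DESeq2 1.42.0, limma 3.58.1, other scalings, filters, dispersions and fold minimums, the replicate block, all 12 libraries, and leaving out each library. The fits were first tested on simulated counts.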

Additional observations from a re-analysis of the deposited data

Results flagged for a closer look

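For 7 of the 91 genes called on D7, the genotype difference differed between D7 and D1. This was tested as the interaction term of the fit of all 12 libraries, with edgeR adjusted p from 0.0426 to 0.0462. The D7 libraries that chose the genes are also part of this term, which favours a difference in the D7 direction. The difference, as the D7 minus the D1 log2 fold change, was 7.10 for *sod-5*, 4.12 for *ZC410.5*, 3.12 for *cps-6* and 2.63 for *Y53C12B.2*, all higher in *daf-2(rf)* on D7. It was -2.81 for *B0513.5*, -2.68 for *K02F6.3* and -2.65 for *C49C3.2*, all lower in *daf-2(rf)* on D7. *cps-6*, *Y53C12B.2*, *B0513.5*, *K02F6.3* and *C49C3.2* had log2 fold changes of -0.91, -1.16, 1.26, 1.01 and 0.32 in the separate D1 fit, of opposite sign to D7, but none of these was called on D1. *C49C3.2*, a kinase-like gene, is annotated as a pseudogene. *B0513.5*, for example, had 359, 413 and 503 reads in *daf-2(rf)* and 33, 224 and 79 in the double mutant on D1.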

How the results depend on the processing

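No called gene changed direction under any alternative. Against 91 called genes, edgeR gave 86 at a minimum log2 fold change of 2, 93 with DESeq2 size factors, 92 with upper-quartile normalization and 94 without the 20 genes with the most reads. The count was 702 with the Wald test of DESeq2 (228 higher, 474 lower, with all 91 genes among them), 1025 with no filter on low counts (295 higher), 253 with all 12 libraries in 1 fit, 36 with robust dispersion estimates, 8 with more than 10 reads in all 6 libraries, and 8 and 14 with limma on log2(FPKM + 1) and log2(FPKM + 0.1). DESeq2 called 14 genes of the list induced by DAF-16, 11 of the repressed list and 14 of the intestinal list. It called 4 genes of the insulin signaling list, 2 of the PSG list and 1 of the mitochondrial unfolded-protein response list. With edgeR, leaving out each library gave 0 to 29 called genes. Without double mutant replicate 3 it was 0, with 962 genes at an unadjusted p under 0.05. Without the filter the median log2 fold change of all genes was -0.25 instead of 0.03. With a replicate block edgeR called 0 genes, with 1223 at an unadjusted p under 0.05. Deviations from the genotype mean correlated at -0.26, 0.001 and -0.11 between same-numbered libraries of the 2 genotypes. Between differently numbered libraries they correlated at -0.12 to 0.24. With 3 replicates a group, these values cannot settle whether the numbers pair the libraries. *dos-3* had a log2 fold change of 4.21 (adjusted p = 0.102) with the replicate block, 2.07 and 3.69 with limma on log2(FPKM + 1) and log2(FPKM + 0.1), and 3.86 to 4.78 when a library was left out. *daf-16* was called with DESeq2 (1.82, adjusted p = 0.00585) and with no filter on low counts (1.86, adjusted p = 1.36e-04). The causes of these differences were not tested. Changes of genes with few reads are limited by depth, since 1 read was up to 0.129 CPM.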
